A study of Rattus norvegicus with 24 samples.

Results

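The 243 autosomal CpG positions described here were methylated in every BN rat and practically without methylation in every CD rat. They were chosen from 12 kidney lists of reduced representation bisulfite sequencing (RRBS): a position was a member if it had at least 10 reads in all 12 rats, a methylation level of at least 70% in all 6 BN rats and of at most 10% in all 6 CD rats. Of 404069 CpG positions with that coverage, 396151 lay on the 20 autosomes, and the members were 0.0613% of these and 0.184% of the 131820 that were methylated at 70% or more in every BN rat. A position is a single cytosine on a single strand, so a CpG read on both strands counts as 2 positions, and the members came from 229 CpG sites. The choice used the levels themselves, so the strain difference at the members is given as a description, without a test.

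A CpG is a cytosine followed by a guanine. It is symmetrical, the opposite strand also reading CpG, and in mammalian tissue both cytosines usually carry a methyl group, whereas CpG islands at promoters are mostly free of it. Bisulfite turns an unmethylated cytosine into a base read as T and leaves a methylated cytosine as C, so the methylation level is the percentage of reads with C. A cytosine that has become T in the genome also gives T reads in every cell, and it removes the CpG. From the listed reads at a member alone, an unmethylated cytosine and a genomic T cannot be told apart in the CD rats. A low CD level also does not show whether the guanine after the cytosine is still there. The listing of the other cytosine of a site is described further below.

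The study compared kidneys of female rats of an inbred strain, Brown Norway (BN), and of the outbred CD Sprague-Dawley stock. They were either non-pregnant (NP) or at day 18 of pregnancy (P18), with 3 rats in each of the 4 groups. Per the paper, the rats were obtained as two-month-old animals, and NP rats were matched to P18 rats by age. The reads had been aligned to Rnor_6.0, the rat reference genome, which was built from the BN strain. The labels name no treatment or allele beyond strain and pregnancy. A whole kidney holds many cell types, and a level is the average over them. Summed coverage ran from 21669162 (CD-NP 3) to 44738436 (BN-NP 3) per rat, and the median coverage of the members ran from 16 reads in CD-NP 3 to 30 in BN-NP 3 and CD-P18 1, close to that of all tested positions in the same rats (16 to 31). With 10 to 30 reads, 1 read is worth several percentage points at a single position in a single rat. All coordinates below are 1-based Rnor_6.0 positions as the lists give them. Genes at these positions were not analysed here.

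Levels in single rats showed no overlap, as the rule requires, and little spread. The median level over the 243 members was 91.7%, 93.3% and 93.1% in BN-NP 1, 2 and 3, and 92.9%, 92.9% and 93.8% in BN-P18 1, 2 and 3. It was 0% in each of the 6 CD rats, where between 219 (CD-P18 1) and 231 (CD-NP 3) of the members had no methylated read at all. That all BN rats were high and all CD rats low, whether pregnant or not, follows from the rule. The mean BN level of a member ran from 75.7% to 100%, with a median of 92.7%, and CpGs methylated in all 12 rats had a median BN level of 93.2%. The SD over the 6 BN rats had a median of 4.56 percentage points at the members and 4.56 at those CpGs.

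**Figure D1:**
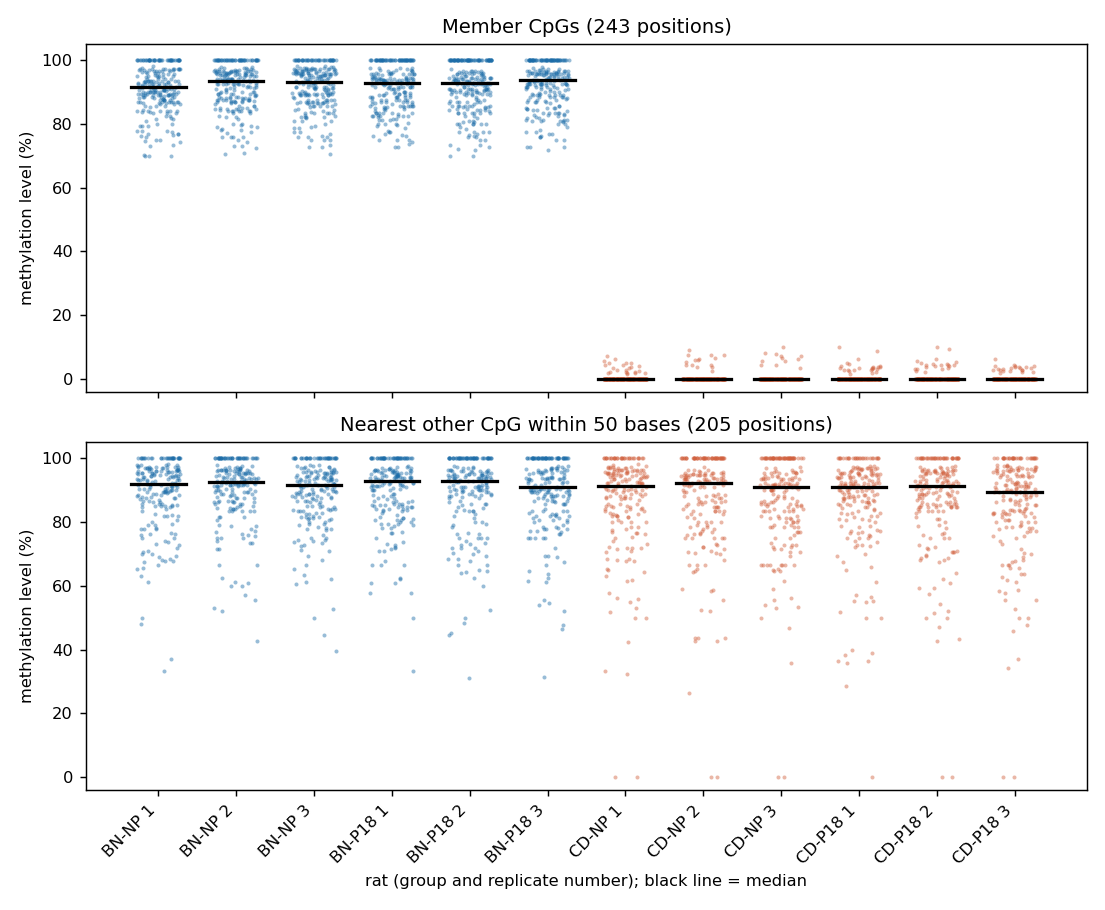
Methylation level in percent (y axis) in each of the 12 rats (x axis). The top shows the 243 member CpGs. The bottom shows the nearest tested CpG within 50 bases that is at no member site (205 positions). Each point is a position and the black line is the median. Members sit at 70% or more in BN and at 10% or less in CD, while the neighbours have medians between 89.5% and 92.9% in every rat.

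The CD levels were at or next to 0%. Summed over members, 128 of 36545 CD reads were methylated, or 0.350%, against 34361 of 37633 BN reads, or 91.3%. At the 142949 autosomal CpGs that were at 10% or less in all 12 rats, the pooled CD level was 0.693%. No methylated read was seen in any CD rat at 154 members, 63.4% of them, and at 47.5% of the CpGs low in all rats. At those 154 members the CD rats had 95 to 224 reads together, which allows a CD level of up to 1.34% to 3.16% depending on the position (3 reads of the total, counting error only). The highest mean CD level of any member was 5.38%. The difference between strain means ran from 75.3 to 100 percentage points, with a median of 92.1.

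Read depth did not set the members apart. The log2 ratio of CD to BN coverage had a median of -0.01 at the members, with quartiles of -0.22 and 0.29, and of -0.04 at all CpGs methylated in every BN rat. At these positions the CD fragments were therefore read about as often as the BN fragments. Positions with fewer reads in any rat had been left out, which limits how far the ratio could fall. The members were split over the strands as 131 forward and 112 reverse cytosines, 53.9% forward, where 51.5% of CpGs methylated in BN were forward.

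The 10 members described next were taken for the highest minimum coverage over the 12 rats, 22 reads or more. An 11th, on chromosome 7 at 143450111, tied with the last 4 of them at 22 reads, and had a BN mean of 95.1% and 0 methylated reads of 196 in CD. On chromosome 16 at 72437215 (reverse strand), the deepest, all rats had at least 28 reads. The level there was 93.0%, 95.7% and 90% in BN-NP 1 to 3 and 89.2%, 89.2% and 96.4% in BN-P18 1 to 3. It was 3.51% and 2.44% in CD-NP 1 and 2 and 0% in CD-NP 3 and the 3 CD-P18 rats, 3 methylated reads of 253. The strains were thus apart by about the whole scale in each rat.

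The member on chromosome 12 at 52238508 (reverse) had the lowest mean BN level of all members, 75.7% ± 2.85 (SD, n = 6), and this was a tight value: the 6 BN rats ran from 71.7% to 80.4% at 40 to 60 reads each. Its CD mean was 0.379%, with 1 methylated read of 236. The member at 2798932 on chromosome 14 (reverse) had the widest BN spread of the 10, from 71.0% in BN-NP 2 to 94.7% in BN-NP 1, mean 87.7% ± 9.10 (SD, n = 6), with 1 methylated read of 213 in CD.

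The other 7 lay on chromosome 11 at 72429596, chromosome 14 at 10150563, chromosome 18 at 37241123, chromosome 2 at 198813717, chromosome 1 at 214732414, chromosome 4 at 10929225 and chromosome 5 at 156622106. Their BN means ran from 86.9% to 96.9%, and 3 of them, on chromosomes 1, 2 and 4, had no methylated read among 189, 212 and 198 CD reads.

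The opposite pattern was nearly missing. Of 129515 autosomal CpGs at 70% or more in all 6 CD rats, 1 was at 10% or less in all 6 BN rats, 0.000772%. It lay on chromosome 2 at 124792200 (reverse strand). All 6 BN rats were at 0% there, and the CD rats were at 96.0%, 95.2% and 81.3% (NP) and 100%, 95% and 100% (P18), 94.6% ± 6.91 (SD, n = 6). Both counts run over positions that are CpG in the reference, a BN genome.

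The number of CD rats lacking the methylation was graded. Among CpGs methylated at 70% or more in every BN rat, 130835 had no CD rat at 10% or less, and 267, 166, 106, 104, 99 and 243 had 1, 2, 3, 4, 5 and 6 such rats. The count fell up to 5 rats and was larger again at 6, the members. In the reverse direction, among CpGs methylated in every CD rat, the counts were 5, 0, 1, 0, 0 and 1 for 1 to 6 BN rats.

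**Figure D2:**
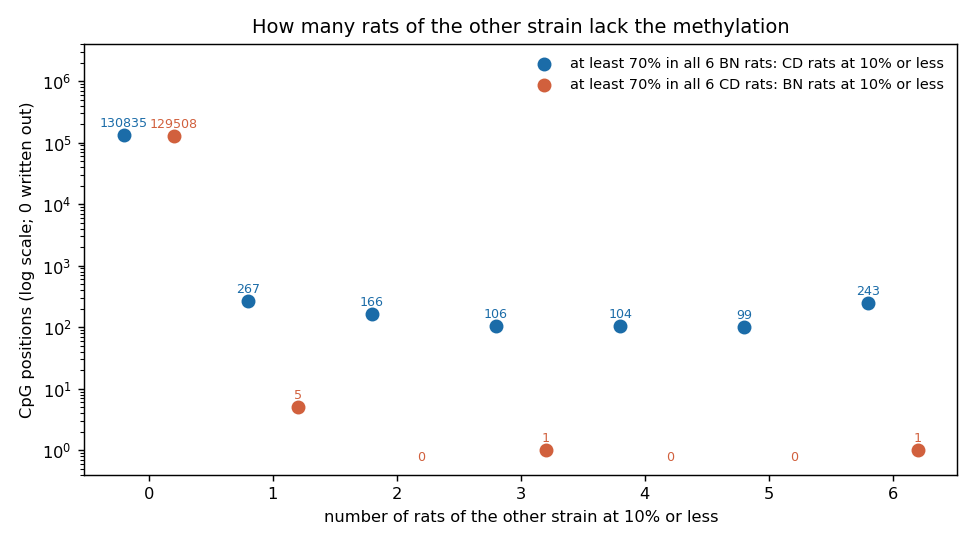
Number of autosomal CpG positions (y axis, log scale) by how many of the 6 rats of the other strain were at 10% or less (x axis), for CpGs at 70% or more in all BN rats (blue) and in all CD rats (orange). The BN-methylated CpGs run from 267 with 1 low CD rat down to 99 with 5 and up to 243 with 6; the CD-methylated CpGs have 7 positions in all beyond 0.

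Where some CD rats were low, the others were often at intermediate levels. At the 99 positions with exactly 5 low CD rats, the remaining rat was over 30% and at most 70% at 78 of them (78.8%), with a median level of 45%, and over 70% at 11. At the 267 positions with 1 low CD rat, 53.2% of the 1335 levels in the other CD rats were over 30% and at most 70%, and 42.2% were over 70%. The remaining rat of the 99 positions was CD-NP 1 at 24, CD-P18 3 at 19, CD-NP 3 at 18, CD-P18 2 at 17, CD-P18 1 at 11 and CD-NP 2 at 10, so no single CD rat accounted for them. A median of 46.5% in CD-NP 1 and of 50% in CD-P18 3 were among the values at these positions.

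The members just inside and just outside the thresholds differed by very little. Of the members, 8 met a threshold exactly. At 36277452 on chromosome 13, at 35774066 on chromosome 14 and at 103935334 on chromosome 15 the lowest BN rat stood at 70% and all CD rats at 0%. At 73305967 on chromosome 11 and 32730342 on chromosome 12 the highest CD rat stood at 10%. The 5 nearest positions outside missed through a BN rat. The lowest BN level was 69.2% at 267167186 on chromosome 1, 44201558 on chromosome 20 and 49747208 on chromosome 8, 69.0% at 24143584 on chromosome 16 and 68.8% at 145385141 on chromosome 5, and the highest CD level among these 5 was 3.85%. In CD these 5 lay within the range of the members.

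Every autosome held members, from 3 on chromosome 9 to 25 on chromosome 5. Chromosomes 2, 7 and 4 followed with 23, 21 and 20. Per 1000 CpGs methylated in all BN rats, the overall rate was 1.84, the lowest 0.520 (chromosome 9, 95% Wilson interval 0.177 to 1.53) and the highest 3.02 (chromosome 14, 15 members, 1.83 to 4.97). Chromosome 9 was the only one whose interval did not reach the overall rate. These intervals treat positions as independent, which CpGs of 1 site or 1 fragment are not.

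**Figure D3:**
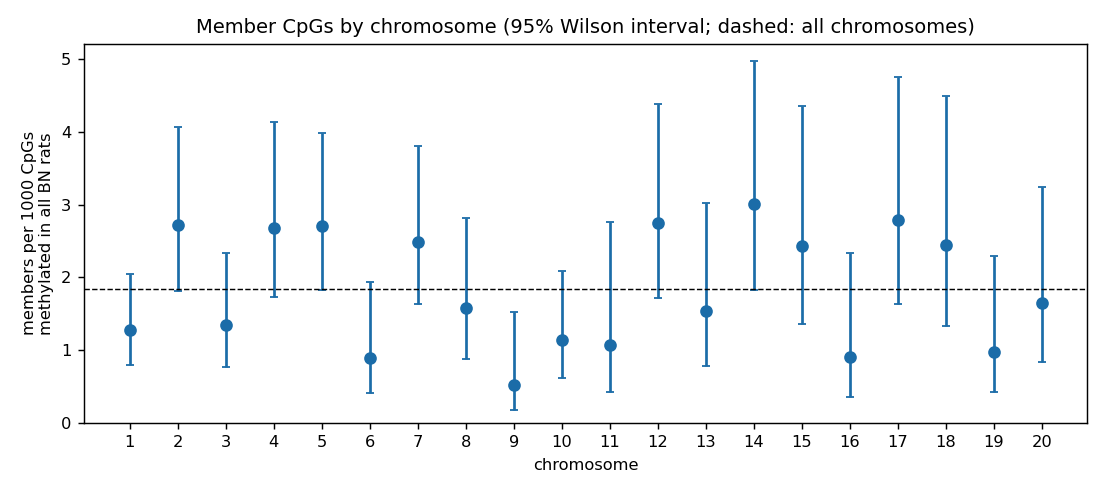
Members per 1000 CpGs methylated in all 6 BN rats (y axis) for each autosome (x axis), with 95% Wilson intervals; the dashed line is the rate over all autosomes, 1.84. Rates run from 0.520 on chromosome 9 to 3.02 on chromosome 14, and every interval except that of chromosome 9 holds the dashed line.

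The members were mostly single sites. The 229 sites formed 5 groups of 2 when sites at most 1000 bases apart were joined, and none larger. The share of member sites with another member site within 50 bases was 2.62% (6 sites), and 0.296% of the 126148 other sites methylated in BN had a member site that near. Within 1 kb the shares were 4.37% and 0.518%, within 100 kb 18.8% and 3.45%, and within 1 Mb 48.5% and 19.6%. Member sites thus had another member site nearby more often than other BN-methylated sites did at each of these distances, and the ratio of the shares was larger at the short distances. These shares were not tested. The median gap between successive sites on a chromosome was about 3066490 bases.

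Members were also counted in fixed windows of 1 Mb. Of 185 windows with a member site, 35 held 2 or more and 6 held 3 or more. The fullest held 5, on chromosome 12 between 6420434 and 6781349, where they were 1.91% of 262 BN-methylated sites. Another, on chromosome 15 between 103057239 and 103935334, held 4, or 2.15% of 186. The 3 member sites in a window on chromosome 14, between 32693563 and 32998706, were 8.57% of only 35 BN-methylated sites, and the other 3 windows with 3 member sites held 1.74% to 2.17%.

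The pairs of near sites included some of the cleanest values. On chromosome 2, forward cytosines at 103205503 and 103205506, 3 bases apart, had BN means of 96.9% ± 4.97 and 96.7% ± 4.40 (SD, n = 6) and 1 and 0 methylated reads among 122 CD reads each. The tested CpGs on either side, 11 bases before and 6 bases after the first, were at 97.3% and 98.7% in CD. The absence of methylated reads in CD was thus confined here, among tested CpGs, to this pair. On chromosome 15, reverse cytosines at 17345845 and 17345868 had BN means of 99.5% and 98.9% and 1 and 0 methylated CD reads of 129 and 130. On chromosome 16, reverse cytosines at 6191287 and 6191300 had BN means of 90.5% and 94.2% and 1 methylated read of 222 and of 224 in CD.

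The pair with most positions lay on chromosome 1. Both strands were read at the site of 214732269, with BN means of 86.8% ± 8.73 (forward) and 93.5% ± 2.96 (reverse, at 214732270), and the reverse cytosine at 214732414 was at 86.9% ± 3.49 (SD, n = 6). None of the 3 had a methylated read in CD, among 108, 185 and 189 reads. The tested CpG 49 bases after the first site was at 89.2% in BN and 92.4% in CD, so methylated CpGs of both strains lay between the members. The fifth pair, on chromosome 8 at 107898698 and 107899470, formed a group spanning 771 bases between sites, with BN means of 95.4% and 88.6% and no methylated read in CD.

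Most members stood among CpGs that were methylated in both strains. CpGs of member sites were left out as neighbours, although 6 member sites had another member site within 50 bases. A tested CpG at no member site was found within 50 bases of 219 members, at a median distance of 14 bases. The other 24 members had none. For 200 of the 219 it lay on the strand of the member. These nearest neighbours were 205 different positions. Their median level was 92.0% in BN and 90.9% in CD, and 152 of them were at 70% or more in all 12 rats. The strain difference at a neighbour had a median of 1.26 percentage points with quartiles of -1.42 and 5.17, and 180 of 205 (87.8%) differed by at most 10 points. In CD, 201 of the 205 neighbours had a mean of at least 50%, and 1 was at 10% or less in all 6 rats. So where a CpG outside the member sites could be tested within 50 bases, it was nearly always methylated in CD although the member was not. Leaving out the CpGs that met the rule raised this share in part.

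**Figure D4:**
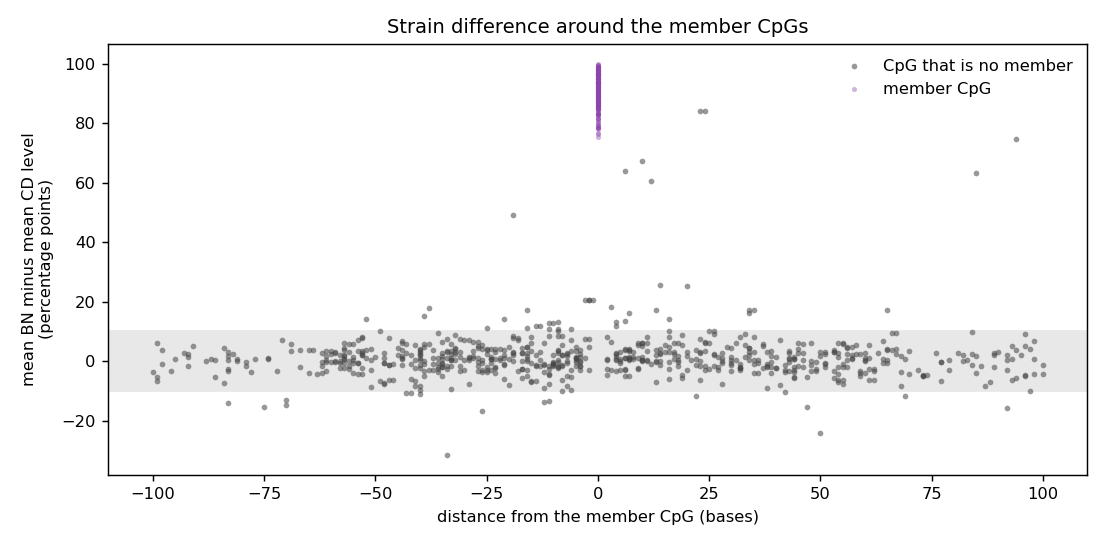
Mean BN level minus mean CD level in percentage points (y axis) against the distance from a member CpG in bases (x axis) for tested CpGs that are no members (grey) and for the 243 members (purple, at 0); the grey band marks differences of up to 10 points. Members lie at 75.3 to 100 points, and most CpGs on either side lie within the band.

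The fall was as sharp at the members with most neighbours. On chromosome 20 at 50819303 (reverse strand) the BN mean was 97.9% ± 5.10 (SD, n = 6), and all 6 CD rats were at 0%. Tested CpGs 2, 4, 7, 19, 35 and 48 bases further on the same strand had CD means of 93.9%, 99.5%, 99.1%, 100%, 96.1% and 100%. On chromosome 8 at 91493105 the BN mean was 97.8% and CD was at 0%, while the CpGs 17 bases before and 23 bases after were at 94.5% and 96.5% in CD. The other 3 members chosen for their many neighbours, on chromosome 5 at 75498573, chromosome 4 at 130685512 and chromosome 2 at 103205506, also had neighbours that were high in both strains.

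Within 25 bases of a member, fewer CpGs were alike between strains than around CpGs methylated in all 12 rats. Within 2 to 10 bases 98 of 112 (87.5%) and within 11 to 25 bases 130 of 148 (87.8%) were within 10 points, against 96.8% and 96.4% around those CpGs. At 26 to 50 bases the share was 94.5% against 95.9%, and at 51 to 100 bases 94.6% against 95.6%. At 101 to 200 bases it was 92.6% (88 of 95) against 95.7%, so the shares differed there too. These positions share fragments and reads with the members, and the shares were not tested.

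The strain difference was tested at the neighbours with a quasi-binomial model fitted over all 404069 positions. The rule touched the neighbours only in that CpGs of member sites could not be neighbours. A call needed a difference of pooled levels over 10 points at an adjusted p (Benjamini-Hochberg) under 0.05. In NP rats 6 of the 205 neighbours (2.93%) were called, 5 higher and 1 lower in BN, and 0.6% of all tested positions were called, 0.471% higher and 0.129% lower. In P18 rats 5 were called (2.44%), 4 higher and 1 lower in BN, against 0.581% of all positions, 0.476% higher and 0.104% lower. The shares over all positions include the 243 members, which were all called higher in BN at each stage, whereas the neighbours hold no member. The same 5 neighbours were called at both stages. The other 199 neighbours were called at neither stage. The NP count fell to 3 without CD-NP 1, and the P18 count fell to 3 without BN-P18 1 or without BN-P18 2. With the dispersion of each CpG estimated from that CpG alone, 0 neighbours were called at either stage, and with the replicate number as a block 3 were called at each.

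The neighbour with the smallest adjusted p at either stage lay 6 bases from the member on chromosome 12 at 22345465. At the member the BN mean was 89.5% and CD was at 0%. At 22345471 the 6 BN rats were at 65.6%, 62.5% and 80% (NP) and 57.7%, 50% and 66.7% (P18), and all CD rats were at 0%. The pooled difference was 69.1 points at NP (adjusted p = 1.11e-11, quasi-binomial model) and 58.0 points at P18 (adjusted p = 1.26e-11). The next CpG, 12 bases from the member, was at 60.5% in BN and 0% in CD, whereas the CpG 33 bases before the member was at 76.6% in BN and 85.9% in CD. Both later CpGs missed membership only through BN levels under 70%.

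At 93275227 on chromosome 10, which lies 10 bases after the member at 93275217, BN rats ran from 70% to 89.5%. CD-NP 1 was at 32.5% and CD-P18 1 at 38.3%, and the other 4 CD rats were at 0%. The CD rats thus fell into separate levels there, while the member itself had a CD mean of 0.595%. The pooled difference was 62.9 points at NP (adjusted p = 1.88e-10) and 62.8 at P18 (adjusted p = 3.94e-07) in the quasi-binomial model.

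At 155781752 on chromosome 4, 3 bases from the member at 155781749, 1 rat made the call. CD-NP 1 was at 0% (26 reads), and all other rats of both strains were at 91.2% to 100%. The difference was called at NP (42.4 points, adjusted p = 1.06e-04, quasi-binomial model) and not at P18 (5.22 points, adjusted p = 0.959). Whether the difference changed with pregnancy was not tested.

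At the other 3 called neighbours the rats of the strains were apart in every case. At 13090700 on chromosome 3, 19 bases before a member, BN was at 88.4% ± 7.46 and CD at 39.4% ± 6.27 (SD, n = 6), and the lowest BN rat (76.5%) lay above the highest CD rat (50%). At 107899490 on chromosome 8, 20 bases after a member, the means were 91.3% ± 5.41 and 66.0% ± 6.98. At 49424350 on chromosome 8, 34 bases before the member at 49424384, the direction was the opposite: BN rats were at 31.3% to 42.9% and CD rats at 63.6% to 70.6%. The groups did not overlap at any of the 3. In the quasi-binomial model the adjusted p was 7.83e-05 at NP and 1.91e-04 at P18 for the first, 0.0145 and 0.0122 for the second, and 0.0349 and 0.0356 for the third.

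**Figure D5:**
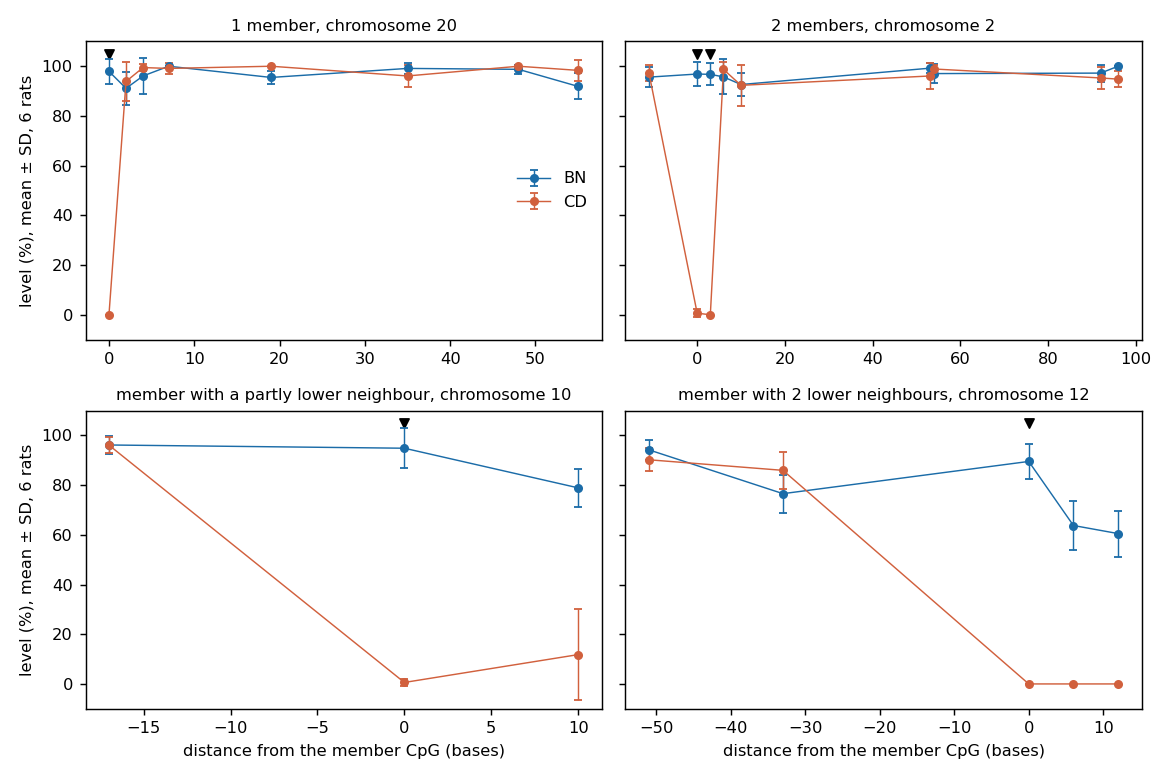
Mean methylation level in percent with SD over 6 rats (y axis) against distance from a member CpG in bases (x axis) at 4 places, BN in blue and CD in orange, with triangles over the members. On chromosomes 20 and 2 the CD mean is near 0% at the members and over 90% at the next tested CpGs; on chromosome 10 the neighbour at 10 bases has a CD mean of 11.8%, and on chromosome 12 both CpGs after the member are at 0% in CD.

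Further CpGs near members had a large strain difference and were not the nearest neighbour. On chromosome 10, both strands of the site at 8888828 were members, with BN means of 86.0% and 86.1%. The reverse cytosine at 8888852 had a BN mean of 84.2% and 0% in all CD rats, its lowest BN rat being at 66.7%. Between them the cytosine at 8888846 was at 92.2% in BN and 86.2% in CD. On chromosome 6, a CpG 94 bases after the member at 48820854 had means of 74.6% in BN and 0% in CD. On chromosome 17, a CpG 85 bases after the member at 6507250 had means of 86.3% in BN and 23.1% in CD.

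Member sites seldom lacked a tested site nearby. A tested site had on average 2.004 others within 50 bases around a member, 1.54 around CpGs methylated in all BN rats and 2.99 over all tested sites. The share without any was 9.17%, 26.7% and 17.2%.

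The opposite strand gave values that the rule had not used, except where the other cytosine was itself a member. A symmetrical CpG should be read alike on both strands, but RRBS fragments seldom cover both deeply. The other cytosine of the site passed 10 reads in all rats for 31 members (12.8%; 12.2% of all tested autosomal positions), and 28 of these were members themselves. The rule had used the levels of these 28, and each of their sites counts once from each strand. At the 3 others a rat was beyond a threshold. At 145385141 on chromosome 5 BN-P18 2 was at 68.8%, at 110246119 on chromosome 6 BN-NP 3 was at 66.7%, and at 82841102 on chromosome 13 CD-NP 3 was at 18.2% and CD-P18 1 at 10.3%.

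For 56 further members the other cytosine was listed in at least 1 rat but under the coverage minimum in some. At 40 of these it was listed in both strains, with a median pooled level of 95.1% in BN and 0% in CD. The CD level was at most 10% at 38 of the 40, and 49 of 3855 CD reads there were methylated. The highest CD value was 22.2%, opposite the member at 50819303 on chromosome 20. Among these 40, the low CD level was thus nearly always found on the other strand too. Whether an unmethylated CpG or a CpG lost from the genome gave this reading was not tested.

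At the remaining 16 the other cytosine was listed in BN rats and in no CD rat, and the reverse did not occur. A position is listed only where at least 5 reads showed C or T there; other bases are not counted. Among members, 72 had the other cytosine listed in all 6 BN rats, and at 13 of these (18.1%) no CD rat listed it. Among other CpGs methylated in all BN rats, this was so at 149 of 31711 (0.470%). In the opposite direction, 0 of 65 members with the other cytosine listed in all CD rats lacked it in all BN rats, against 162 of 29578 other CpGs (0.548%). At the 13 members themselves CD reads were present on the member's own strand and their CD mean was 0% at 9 of them.

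Nearby CpGs on that other strand give the CD reads close to the missing cytosine. They do not show whether reads in CD covered the cytosine itself. At 7 of the 13 sites another CpG within 50 bases on the same strand as the missing cytosine was listed in all 6 CD rats, with 94 to 177 CD reads. One was the site of the member at 23662241 on chromosome 17. The other cytosine, at 23662242, had 111 BN reads at a pooled level of 98.2% and was listed in no CD rat, while 25 bases away on that strand the CD rats had 177 reads and the BN rats 118. Another was opposite the member at 158076547 on chromosome 2: the cytosine at 158076546 had 139 BN reads at 92.1% and none listed in CD, and the CpG 34 bases away had 177 CD and 139 BN reads. At these 7 sites CD reads of that strand were present close by, yet the cytosine was not listed. The other 6 gave less or no such reading. At 3 of them the deepest nearby CpG on that strand was listed in only 4 or 5 CD rats, with 31 CD against 93 BN reads opposite 264739536 on chromosome 2, 64 against 88 opposite 130758843 on chromosome 7 and 40 against 78 opposite 49424384 on chromosome 8. Opposite 37037000 on chromosome 14 it had 0 listed CD reads and 85 BN reads, so neither of the 2 other CpGs there was listed in CD, and at the 2 sites on chromosome 3 at 14076815 and 64405073 no other CpG was listed within 50 bases. Why the cytosine was not listed was not tested.

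The difference between stages at the members is given as a description, since the rule used the levels of both stages and so bounded it. In BN, P18 minus NP had a median of 0.02 percentage points over the 243 members, from -12.2 to 11.3, with 123 higher, 117 lower and 3 equal, and 191 within 5 points. In CD it ran from -4.62 to 4.21 points, and 154 members were equal. The model called 0 members in either strain, and over all 404069 positions it called 1 in BN (0.000247%) and 195 in CD (0.0483%, of which 0.0245% were higher and 0.0238% lower at P18). Nothing can be read from the members' count of 0: with every CD level at 10% or less a difference over 10 points could not occur there, and BN levels were held between 70 and 100%.

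The member on chromosome 1 at 203123096 had the largest fall in value, from 86.7%, 94.7% and 95% in BN-NP 1 to 3 to 75%, 90.9% and 78.9% in BN-P18 1 to 3, at 11 to 20 reads a rat. These groups overlapped. At 7:138724308 (-12.1 points), 4:153450924 (-11.9), 8:49732853 (11.3) and 10:81169318 (11.3), given as chromosome and position, the groups did not overlap. These members were picked for their differences. How often groups of 3 rats did not overlap over all positions was not counted. The unadjusted p between stages in BN (quasi-binomial model) was under 0.05 at 2.88% of members and at 3.52% of all tested positions.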

How the data were processed

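RRBS libraries of 12 kidneys were analysed. Per the labels and the study's methods, the authors trimmed reads with Trim Galore 0.4.5, removed duplicates by molecular identifiers, used Bismark for alignment to Rnor_6.0, and the deposited lists, 1 a rat, hold the coverage of each cytosine with the percent of C and of T reads. Methylated reads were recovered as coverage times percent. Positions with 10 reads in all 12 rats were kept. Each comparison of groups was a logistic (quasi-binomial) model per position with an F test, its dispersion moderated with limma 3.58.1 (R 4.3.3; floor 1) and adjusted over 404069 positions; it was tested on simulated data. Means are over rats, pooled levels over reads. Positions named are the 10 with the highest lowest coverage, those in the largest group of near sites, the 5 with the most different and the 5 with most neighbours, and 5 on each side of the thresholds; the other pairs of near sites, the largest pregnancy differences, the site at 8888828 on chromosome 10 and the sites with a missing cytosine were named after their values were seen. The further CpGs on chromosomes 6 and 17 were also named after their values were seen. Members and lists were chosen with earlier results of these data known. Labels name 3 samples a group and nothing more on their independence, so p-values apply to these samples only. They rest on read counts and on a dispersion shared over positions, not on the spread between rats at the position alone. The RNA-seq counts and the authors' comparisons were not used here.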

Additional observations from a re-analysis of the deposited data

Results flagged for a closer look

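On the X chromosome, which the description of the autosomes leaves out, 3 of 7900 tested positions met the same thresholds, of 3016 that were methylated in all 6 BN rats, and 0 met the reverse. They were at 23343886, 119025637 and 127478823, all forward cytosines, with BN means of 87.2% ± 7.95, 92.4% ± 2.63 and 96.9% ± 1.75 (SD, n = 6) and 0% in all 6 CD rats.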

How the results depend on the processing

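The number of CpGs methylated in BN and absent in CD was 243; it was 567 at a coverage minimum of 5, 18 at a minimum of 20, 159 at levels of 80 and 5% and 395 with pooled reads of each strain. Leaving out 1 rat gave 248 to 381, the highest without CD-NP 3, the shallowest rat. The reverse count of 1 became 0 at a minimum of 20 and 3 at levels of 60 and 20%, and 1 to 2 with 1 rat left out. Of the neighbours called between strains, 6 at NP and 5 at P18, a minimum of 20 left 13 neighbours and 0 calls, the own dispersion of each CpG left 0 at both stages, and the replicate block left 3 at both; leaving out 1 rat gave 3 to 5 at each stage. Beyond the looser or stricter settings themselves, the cause of these changes was not tested. Deviations of same-numbered rats from their group means had correlations of -0.017 to 0.025 over 155286 CpGs. At this coverage such values cannot exclude that the replicate number paired rats. The block left the members called between stages at 0 in each strain. The choice of members bounds that count, so it says nothing about stability. At 10 to 30 reads a position, 1 read moves the level of a rat by several points. The lists count C and T only. Planned comparisons of host genes, methylation enzymes and kidney markers were not run, because no annotation of Rnor_6.0 or table of gene identifiers was used here.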
